A study of Oryza sativa with 8 samples.

Results

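The peaks described here are the OsChz1 peaks around the centromeres of rice (Oryza sativa), that is, all peaks of the complemented line with a midpoint within 2 Mb of the approximate centromere of their chromosome. They numbered 1343 of the 11356 peaks of that line. The choice used position alone. The approximate centromeres lay at 16.7 Mb on chromosome 1, 13.6 Mb on chromosome 2, 19.4 Mb on chromosome 3, 9.7 Mb on chromosome 4, 12.4 Mb on chromosome 5 and 15.3 Mb on chromosome 6. On the other chromosomes they lay at 12.1 Mb (chromosome 7), 12.9 Mb (chromosome 8), 2.8 Mb (chromosome 9), 8.2 Mb (chromosome 10), 12 Mb (chromosome 11) and 11.9 Mb (chromosome 12). Coordinates are 1-based on the Nipponbare assembly MSU7, which the study's methods name.

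OsChz1 was profiled by anti-MYC chromatin immunoprecipitation sequencing (ChIP-seq) in whole seedlings of 30 days, which grew with 14 h of light at 30 °C and 10 h of darkness at 28 °C. The line COM1 (genotype OsChz1-MYC/oschz1) carries the mutation oschz1-1 and a transgene for MYC-tagged OsChz1 under the native OsChz1 promoter, and is a single transgenic line. The control was the mutant oschz1-1 (genotype oschz1 mutant), a frameshift made by CRISPR/Cas9, which was treated with the same antibody and has no tagged protein. Each genotype had 2 ChIP libraries and 2 input libraries without antibody, but the data are 1 list of peaks per genotype and a table by the authors of where COM1 exceeded oschz1-1. Hence no value has an error between replicates. A peak that overlapped a region of that table by at least 1 bp is called differential below. The table lists 4865 regions. The study's own set of OsChz1-occupied peaks, for which oschz1-1 served to remove background, is of the same size as this table, so the COM1 list is the wider of the 2 and also holds peaks that overlap no region of the table.

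Chz1 of yeast is a histone chaperone that carries dimers of H2A.Z and H2B, and OsChz1 is a rice protein with the same CHZ domain. A histone chaperone escorts histones on their way into and out of nucleosomes. Centromeres of rice are built on arrays of the CentO satellite repeat and on centromeric retrotransposons, and part of their nucleosomes hold the histone H3 variant CENH3. The flanking pericentromeric chromatin is rich in transposable elements and DNA methylation and poor in genes and crossovers. In plants, H2A.Z and DNA methylation tend to exclude each other along the genome. The lists hold no mark of centromeric chromatin, so the positions of the centromeres were not checked against the data, and no gene or repeat was assigned to a peak here.

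The first question was how many COM1 peaks these regions hold. The 12 windows of 4 Mb spanned 48.0 Mb, which is 12.9% of the 372.7 Mb covered by the chromosomes, and held 11.8% of the 11349 COM1 peaks on them. This corresponded to 28.0 peaks per Mb, against 30.8 peaks per Mb for the 10006 peaks in the rest. COM1 peaks were thus present around every centromere, at 0.908 times the density of the rest when all windows were pooled. For the differential peaks alone the pooled densities were close, with 13.5 per Mb in the windows and 12.98 per Mb in the rest. This ratio of 1.04 was not tested, and the density of differential peaks was higher in the window on 6 of 12 chromosomes. Within the windows, chromosome 5 had the lowest density, at 20.8 peaks per Mb, and chromosome 3 the highest, at 39.0. The windows of chromosomes 2, 6 and 8 held 26.0 peaks per Mb each, those of chromosomes 4, 7 and 11 held 27.0, 26.8 and 25.3, and those of chromosomes 1, 9 and 12 held 29.8, 28.5 and 28.5. The window of chromosome 10 had 32.3 peaks per Mb, the same as the rest of that chromosome. The values overlapped with those outside the windows, which ranged from 26.6 on chromosome 12 to 33.2 on chromosome 1.

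**Figure D1:**
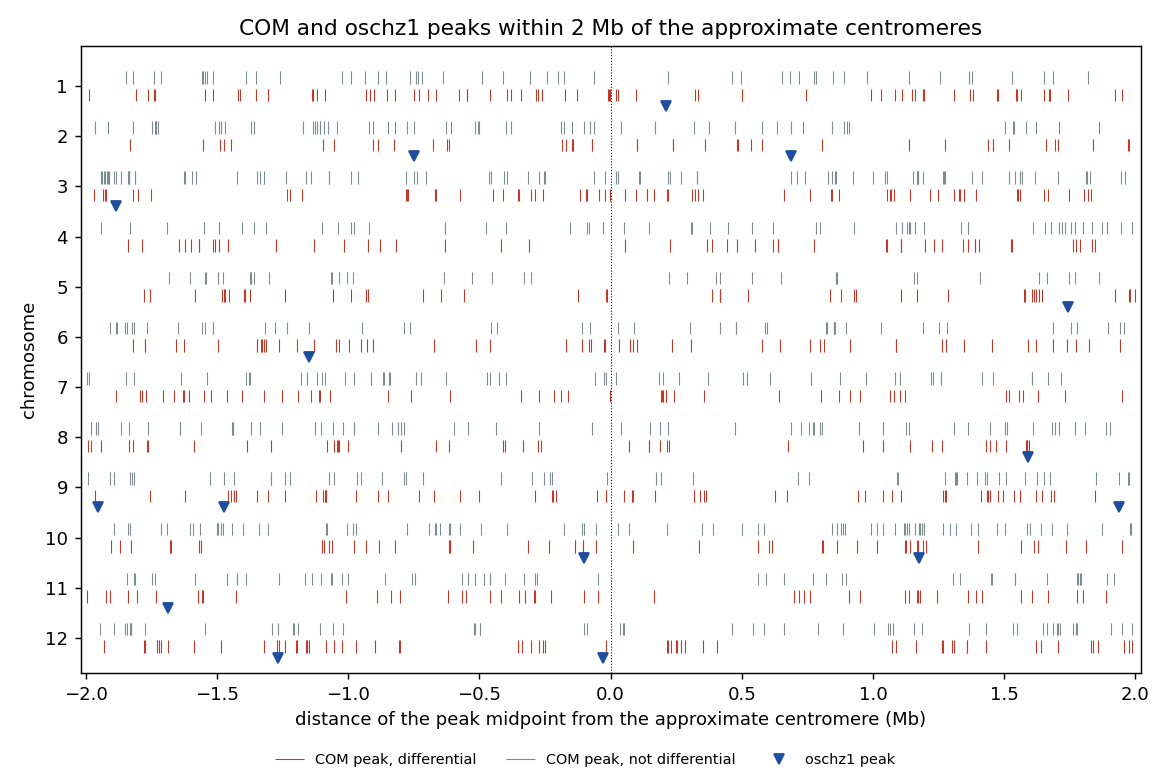
The 1343 COM1 peaks (COM in the legend) around the 12 approximate centromeres, by distance of the peak midpoint from the centromere in Mb (x axis) and chromosome (y axis). Red marks are the 648 differential peaks (48.3%, against 42.8% of all COM1 peaks on the 12 chromosomes), gray marks the 695 others, and blue triangles the 15 peaks of oschz1-1 (oschz1 in the legend), of which chromosomes 4 and 7 have none.

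Each window was then compared with the rest of its own chromosome by an exact sign-flip permutation test over the 12 chromosomes. The tests were two-sided, and 6 measures were tested and adjusted together (Benjamini-Hochberg). Each p-value compares the mean difference with those under all choices of sign over the chromosomes. The units are chromosomes of 1 list and not biological replicates, so the p-values do not cover variation between replicates. The mean density was 28.0 ± 4.4 peaks per Mb within the windows and 30.7 ± 1.9 peaks per Mb outside (SD, n = 12 chromosomes). It was lower within the window on 10 of 12 chromosomes, and the mean difference of -2.75 peaks per Mb did not pass the threshold (exact permutation p = 0.0591, adjusted p = 0.0762). Chromosome 3 was the main exception, with 39.0 peaks per Mb in the window and 30.5 outside, and chromosome 12 the other (28.5 and 26.6). Without chromosome 3, the difference was -3.78 peaks per Mb and passed the threshold (exact permutation p = 0.00293, adjusted p = 0.00586). This was the only omission of 12 that passed. The other 11 did not, with adjusted p-values up to 0.141 and unadjusted exact permutation p-values up to 0.116.

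The length covered by peaks was also lower around the centromeres. Members covered 497 kb in all, or 10.3 ± 1.8 kb per Mb, against 11.8 ± 0.91 kb per Mb in the rest (SD, n = 12 chromosomes). The difference of -1.47 kb per Mb was found on 10 of 12 chromosomes and passed the threshold (exact permutation p = 0.0190, adjusted p = 0.0381). It was, however, close to the threshold. Leaving out any of the chromosomes 1, 2, 5, 6, 7, 8 and 11 gave adjusted p-values above 0.05, up to 0.0762, while the unadjusted exact p was at most 0.0381 and the difference stayed between -1.85 and -1.30 kb per Mb. Against only the 2 Mb next to each window, the difference was -0.55 kb per Mb and was not past the threshold (exact permutation p = 0.404, adjusted p = 0.762).

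**Figure D2:**
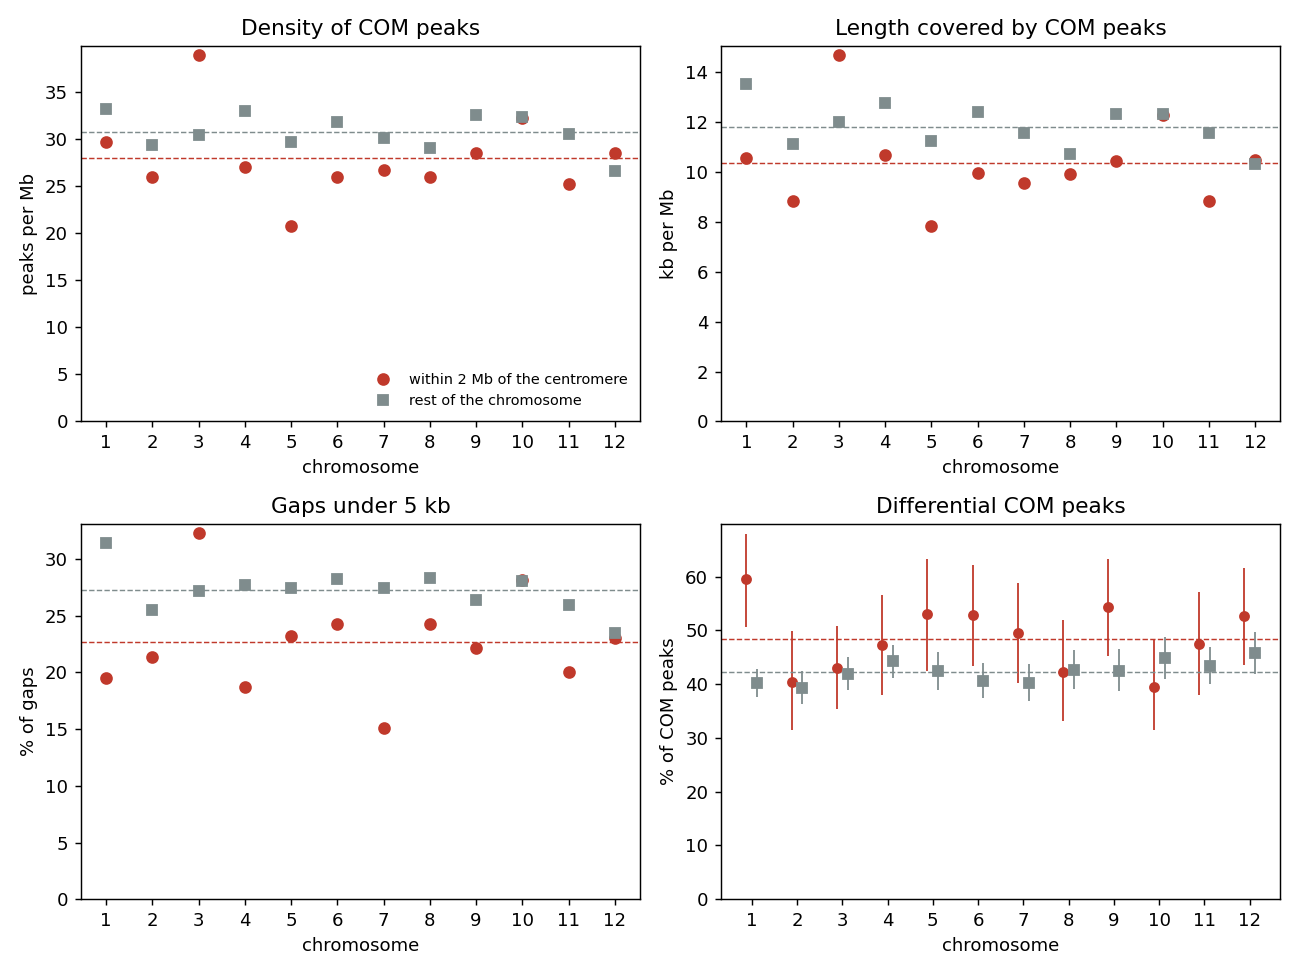
Values of each chromosome within 2 Mb of the approximate centromere (red circles) and in the rest (gray squares) for the density of COM1 peaks (peaks per Mb), the covered length (kb per Mb), the share of gaps under 5 kb (%) and the share of differential peaks (%). Dashed lines are means over the 12 chromosomes and bars are 95% Wilson intervals. Chromosome 3 has more peaks within the window than outside (39.0 and 30.5 per Mb), unlike 10 of the other chromosomes.

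Peaks were sparsest close to the centromere. Within 1 Mb on either side, 569 peaks were found in 24 Mb, or 23.7 peaks per Mb. From 1 to 2 Mb, there were 774 peaks in the same length, or 32.3 peaks per Mb, which is above the 30.8 peaks per Mb of the regions beyond 2 Mb. The inner part had fewer peaks than the outer part on 10 of 12 chromosomes. The exceptions were chromosome 1, with 60 inner and 59 outer peaks, and chromosome 2, with 55 and 49. The contrast was largest on chromosome 12, with 35 inner and 79 outer peaks, and was also seen on chromosome 4, with 40 and 68 peaks, and on chromosome 9, with 44 and 70 peaks. With windows of 1 Mb on each side, the density was lower than in the rest of the chromosome on 11 of 12 chromosomes, and the mean difference of -7.15 peaks per Mb passed the threshold (exact permutation p = 0.00146, adjusted p = 0.00293). Covered length, gaps and differential share also passed it with these windows. The 1 Mb centered on the approximate centromere held between 14 peaks (chromosome 5) and 43 peaks (chromosome 3), with a median of 23.5 peaks.

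In steps of 0.5 Mb, the density was 23.9 and 23.5 peaks per Mb in the first 1 Mb and rose to 32.9 peaks per Mb between 1 and 1.5 Mb. From there to 10 Mb it moved between 26.3 and 33.4 peaks per Mb. Both sides of the centromere took part, with 694 members on the side of position 0 and 649 on the other, and 7 of 12 chromosomes had more on the former. Reads of low mapping quality had been removed by the authors. How much of each region could receive uniquely mapped reads is not in the lists, and its part in these densities was not tested.

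**Figure D3:**
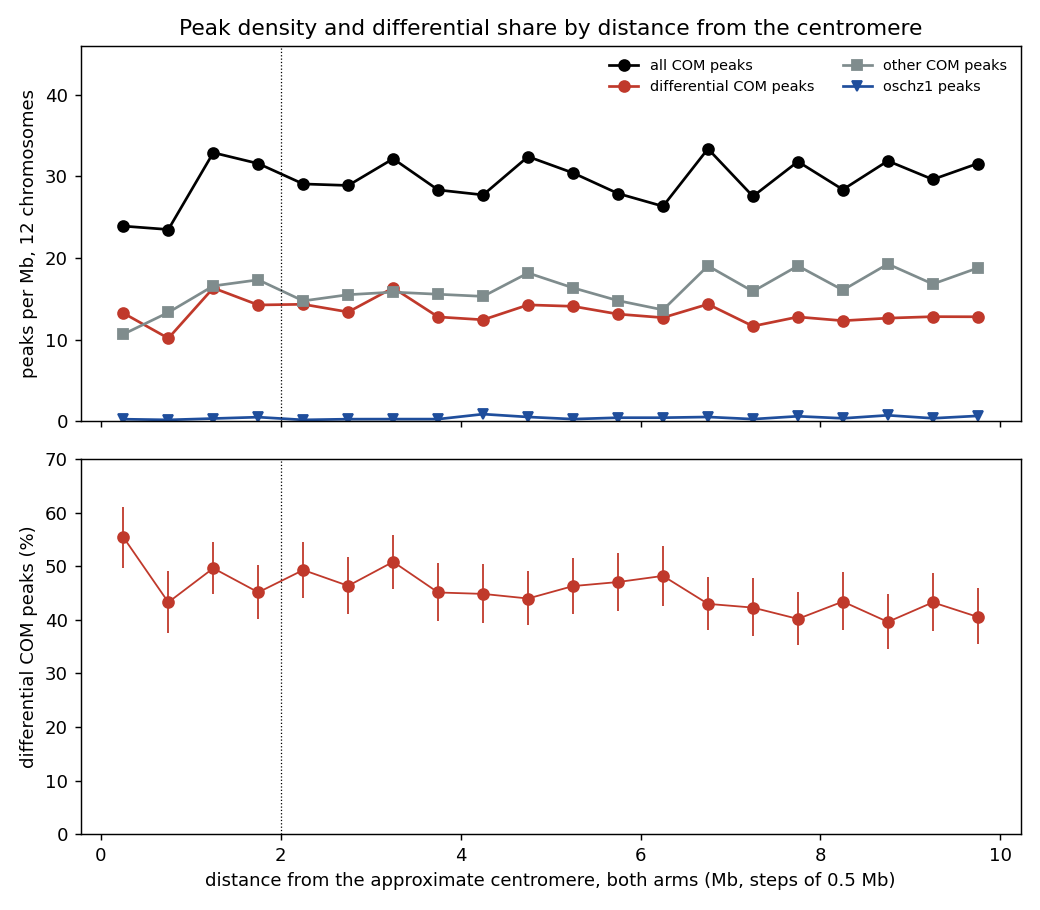
Density of COM1 peaks, differential COM1 peaks, other COM1 peaks and oschz1-1 peaks (upper panel, peaks per Mb summed over 12 chromosomes) and share of differential COM1 peaks with 95% Wilson intervals (lower panel, %) by distance from the approximate centromere in steps of 0.5 Mb. The dotted line marks 2 Mb. The density is lowest in the first 1 Mb (23.9 and 23.5 peaks per Mb), and the differential share is highest in the first 0.5 Mb (55.4%).

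The COM1 peak nearest to each approximate centromere position was then listed. On every chromosome it lay between 1.80 and 48.3 kb from that position, where the median gap between neighboring members was 18264 bp. The positions are rounded and were not checked, so these distances do not show whether the centromere itself holds peaks. Distances with a minus sign are on the side of position 0. The nearest members were Chr1:16698005-16698400, at -1.80 kb, Chr3:19396631-19397040, at -3.17 kb, and Chr7:12095597-12095987, at -4.21 kb, and all of these were differential. The next were Chr9:2786463-2786682, Chr5:12385792-12386042, Chr12:11881157-11881441 and Chr6:15277296-15277496, at -13.4, -14.1, -18.7 and -22.6 kb. Farther off were Chr10:8227610-8227819, Chr4:9670640-9670847, Chr2:13638482-13638746, Chr8:12940183-12940404 and Chr11:11951623-11951836, at 27.7, -29.3, 38.6, 40.3 and -48.3 kb. Of these 12 peaks, 7 were differential, against 48.3% of all members and 42.8% of all COM1 peaks on the 12 chromosomes. Such a small number does not set them apart from these shares. Their widths ranged from 201 bp on chromosome 6 to 410 bp on chromosome 3.

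The longest stretch without a COM1 peak in each window was next measured. These stretches ranged from 155 kb on chromosome 1 to 396 kb on chromosome 11, and 10 of 12 were over 200 kb. The stretch held the approximate centromere on 1 chromosome only, which was chromosome 5 (Chr5:12386043-12621859, 236 kb). On 8 chromosomes its middle lay within 1 Mb of the centromere. It was the longest of the whole chromosome on chromosome 11 (Chr11:12164769-12560999, 396 kb, against 218 kb in the rest) and on chromosome 3 (Chr3:19751960-20062018, 310 kb, against 230.2 kb). On chromosomes 12, 6 and 9 the stretches were Chr12:11096347-11379989 (284 kb), Chr6:14865433-15129901 (264 kb) and Chr9:3164596-3425485 (261 kb). On chromosomes 8, 2 and 7 they were Chr8:13123816-13372545 (249 kb), Chr2:14509052-14736015 (227 kb) and Chr7:13833425-14048706 (215 kb). On chromosomes 10, 4 and 1 they were Chr10:6894900-7100146 (205 kb), Chr4:8883537-9067490 (184 kb) and Chr1:14985774-15140937 (155 kb). Except on chromosomes 3 and 11, at least 1 longer stretch was present outside the window, with up to 36 on chromosome 1.

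Members had a close neighbor less often than the other peaks. Of 1331 gaps between neighboring members, 307 were under 5 kb, which is 23.1% (95% Wilson interval 20.9 to 25.4%), against 2747 of 9982 gaps in the rest, or 27.5% (26.7 to 28.4%). These intervals cover counting error over gaps only. Per chromosome the share was 22.7 ± 4.5% within the windows and 27.3 ± 1.9% outside (SD, n = 12 chromosomes). It was lower on 10 of 12 chromosomes, with a mean difference of -4.60 percentage points (exact permutation p = 0.0127, adjusted p = 0.0381). The share within the window was lowest on chromosome 7, at 15.1%, and highest on chromosome 3, at 32.3%. Again the call was lost without any of the chromosomes 1, 2, 5, 6, 7, 8 and 11, with adjusted p-values up to 0.0762 and unadjusted exact p-values up to 0.0254, and the difference stayed between -5.48 and -3.89. It was also lost when peaks within 1 kb were joined (-2.28 percentage points, exact permutation p = 0.119, adjusted p = 0.143) and against only the 2 Mb next to the windows (-3.11, exact permutation p = 0.137, adjusted p = 0.762). With the centers moved 0.5 Mb away from position 0 (-2.99, exact permutation p = 0.0542, adjusted p = 0.0750) and in peaks at or above the median width (-4.30, exact permutation p = 0.0396, adjusted p = 0.0623) it was lost as well.

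The difference in spacing was found from the closest pairs onward. Gaps under 1 kb made up 7.14% in the windows (95 gaps) and 10.3% in the rest (1031 gaps), and the share was lower in the window on 10 of 12 chromosomes. The median gap was 18264 bp in the windows and 16001 bp in the rest. Gaps over 100 kb made up 8.11% and 7.26%. In runs of neighbors with gaps under 5 kb, 60.2% of the members stood alone, against 53.8% of the other COM1 peaks, and 25.8 and 26.5% were in runs of 2 peaks. Runs of 4 peaks held 2.98% of the members and 5.24% of the others, and those of 5 or more held 2.31 and 3.96%. These shares were not tested.

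**Figure D4:**
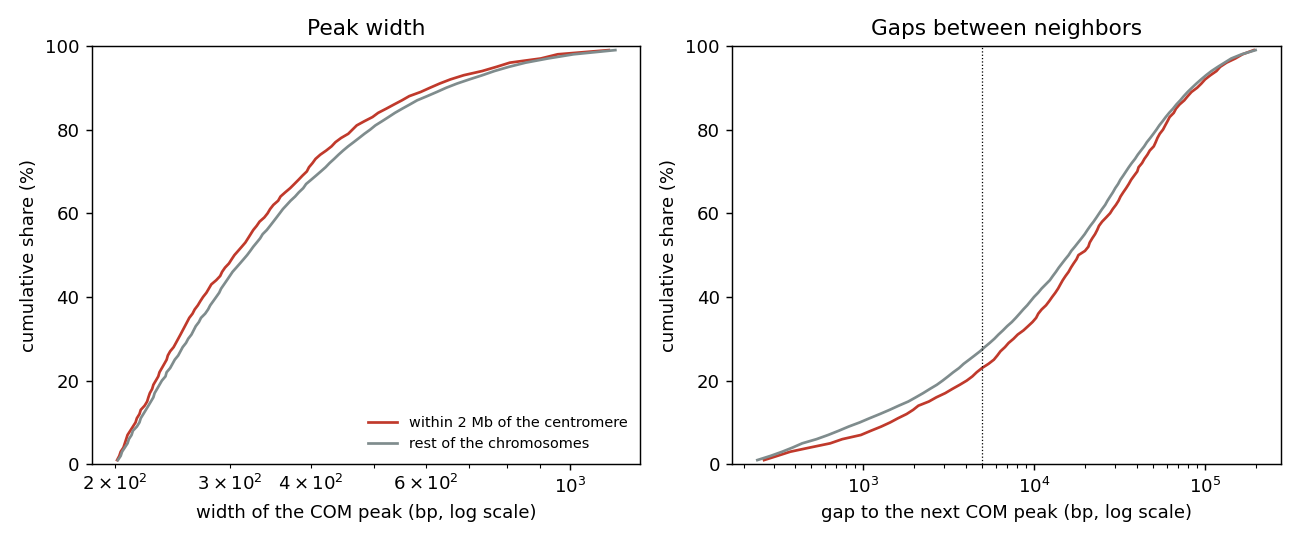
Cumulative share (%) of COM1 peaks by width (left, bp on a log scale) and of gaps between neighboring COM1 peaks by length (right, bp on a log scale), from the 1st to the 99th percentile, within 2 Mb of the approximate centromeres (red) and in the rest (gray). The dotted line marks 5 kb, below which 23.1% of the gaps in the windows and 27.5% of those in the rest lie.

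The longest run of all was nevertheless a member run. It comprised 11 peaks at Chr3:17459062-17489357, over 30.3 kb, at -1941 to -1911 kb from the centromere of chromosome 3. The longest run outside the windows had 9 peaks. The peaks of the chromosome 3 run were between 241 and 992 bp wide, with a median of 733 bp, and their 3 differential members were Chr3:17466300-17467291 (992 bp), Chr3:17474131-17474901 (771 bp) and Chr3:17477466-17478249 (784 bp). The last 2 of these were direct neighbors, and other peaks of the run lay on both sides of all 3. No oschz1-1 peak overlapped the run. Without this run, the window of chromosome 3 still had 36.3 peaks per Mb. The other runs of 5 members were Chr3:20568021-20571947, with no differential peak, and Chr10:7582463-7588943, Chr10:9319450-9327921 and Chr10:9385825-9400489, with 3, 2 and 2 differential peaks. All runs of 5 or more were hence on chromosomes 3 and 10, the 2 chromosomes with the highest density in the window. Among the 307 pairs of neighbors with a gap under 5 kb, 164 (53.4%) were of the same status, that is, both or neither differential. As 48.3% of all members were differential, many pairs match without any link between neighbors. No such share was computed for the other peaks, and it was not tested.

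The widths of members were within the range of the other peaks. The median was 305 bp (interquartile range 240 to 422 bp) for members and 319 bp (247 to 448 bp) for the other COM1 peaks. The medians per chromosome were 306 ± 17 bp in the windows and 317 ± 8.4 bp outside (SD, n = 12 chromosomes), lower in the window on 8 chromosomes, higher on 2 and equal on 2. This difference of -11.9 bp did not pass the threshold (exact permutation p = 0.0762, adjusted p = 0.0762). It ranged from -53.0 bp on chromosome 1, where members had a median of 284 bp, to 22.0 bp on chromosome 4, where they had a median of 345 bp. Against the 2 Mb next to the windows the sign turned, at 3.29 bp (exact permutation p = 0.669). In means, the difference of -14.9 bp passed the threshold (exact permutation p = 0.0210, adjusted p = 0.0315). Without chromosome 3 or without chromosome 4, the difference in medians passed it as well, with a lowest adjusted p of 0.0422 and differences of up to -15.0 bp. Omitting any of the other 10 chromosomes left it short, with adjusted p-values and unadjusted exact permutation p-values up to 0.152.

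Broad peaks of at least 800 bp were found among the members as well, at 58 of 1343 (4.32%), compared with 513 of 10006 in the rest (5.13%). The widest member was Chr10:9138187-9140015, of 1829 bp, at 939 kb from the centromere of chromosome 10, which was the 4th widest of all COM1 peaks on the 12 chromosomes. The next were Chr6:13674500-13676035 (1536 bp), Chr8:14487957-14489484 (1528 bp), Chr12:13599918-13601390 (1473 bp) and Chr8:11460965-11462428 (1464 bp). The first 3 of these 5 were differential, and the last 2 were not, where 48.3% of all members were differential. All 5 lay between 939 and 1701 kb from the centromere.

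To compare members with the background of the antibody, the peaks of oschz1-1 were placed in the same windows. There were 15 oschz1-1 peaks, or 0.313 per Mb, against 155 peaks and 0.477 per Mb in the rest. Members outnumbered them by 89.5 to 1, and the other COM1 peaks outnumbered the other oschz1-1 peaks by 64.6 to 1. The density of oschz1-1 peaks was lower in the window on 9 of 12 chromosomes, and the mean difference of -0.159 peaks per Mb was not past the threshold (exact permutation p = 0.0732, adjusted p = 0.0762). Without chromosome 9, which had 3 oschz1-1 peaks in its window, it was past the threshold, at -0.198 peaks per Mb (exact permutation p = 0.0205, adjusted p = 0.0469). Omitting any of the other 11 chromosomes did not bring it past, with adjusted p-values and unadjusted exact permutation p-values up to 0.146. The part of the background in the density of COM1 peaks was not tested. By the study's reporting summary, the oschz1-1 ChIP libraries had fewer reads than those of COM1. No count here was adjusted for this, and its part was not tested.

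Of all COM1 peaks on the 12 chromosomes, 0.987% overlapped an oschz1-1 peak. Among the members these were 9 peaks, or 0.670% (95% Wilson interval 0.353 to 1.27%), compared with 103 of the other peaks, or 1.03% (0.850 to 1.25%). The intervals overlap, but they cover counting error over peaks only, and the difference was not tested. The 9 members were found on 7 chromosomes, and their widths had a median of 672 bp (218 to 1528 bp). They were Chr2:12852172-12852736, Chr2:14289196-14289413, Chr3:17512716-17513387, Chr6:14150960-14151819, Chr8:14487957-14489484, Chr9:4737266-4737935, Chr10:8097151-8097441, Chr10:9376957-9377911 and Chr12:10630867-10631782. Of these 9, only the peak on chromosome 8, the 3rd widest member, was also differential, as were 5 of the 103 other peaks with an oschz1-1 peak. Of all members 48.3% were differential, and of all COM1 peaks on the 12 chromosomes 42.8%. The authors' table lists where COM1 exceeded oschz1-1, so a low count at oschz1-1 peaks is partly built into it. The other 6 oschz1-1 peaks of the windows had no COM1 peak. They included Chr12:11872520-11872980 (461 bp), at 27.3 kb from the approximate centromere, which was the 5th widest peak of the mutant list, and Chr1:16911278-16911638 (361 bp), at 211 kb. The remaining ones were Chr5:14143989-14144240, Chr9:847849-848093, Chr9:1327451-1327686 and Chr11:10313445-10313805.

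Members were more often differential than the other COM1 peaks when these were pooled, but not clearly more often than peaks next to the windows. From 2 to 4 Mb from the centromere, 48.0% of the COM1 peaks were differential (95% Wilson interval 45.4 to 50.6%). A total of 648 of 1343 members (48.3%, 95% Wilson interval 45.6 to 50.9%) were higher in COM1 than in oschz1-1 by the authors' table, against 4215 of the 10006 other peaks (42.1%, 41.2 to 43.1%) and 42.8% of all COM1 peaks on the 12 chromosomes. The shares per chromosome were 48.5 ± 6.3% in the windows and 42.4 ± 2.0% in the rest (SD, n = 12 chromosomes). The share was higher in the window on 10 of 12 chromosomes, by 6.14 percentage points on average, which passed the threshold (exact permutation p = 0.0117, adjusted p = 0.0381). As for the covered length and the gaps, the call was lost without any of the chromosomes 1, 2, 5, 6, 7, 8 and 11, with adjusted p-values up to 0.0762, unadjusted exact p-values up to 0.0234 and differences between 4.93 and 7.19. It was also lost when peaks within 1 kb were joined (4.87 percentage points, exact permutation p = 0.0386, adjusted p = 0.0771). Against only the 2 Mb next to the windows the call was lost as well. The mean difference was then 0.255 percentage points (exact permutation p = 0.886, adjusted p = 0.886). In that comparison the share was lower in the window on 7 of 12 chromosomes and higher on 5.

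Chromosome 1 stood out, with 71 of 119 members differential (59.7%, 50.7 to 68.0%), against 40.2% (37.6 to 42.9%) in the rest of the chromosome. It was the only chromosome whose intervals did not overlap. They cover counting error over peaks only, and no chromosome was tested by itself. On chromosomes 5, 6, 9 and 12, more than 50% of the members were likewise differential, at 53.0, 52.9, 54.4 and 52.6%, and the rest of these chromosomes had 42.4, 40.6, 42.5 and 45.8%. The windows of chromosomes 4, 7 and 11 were at 47.2, 49.5 and 47.5%, and those of chromosomes 2 and 3 at 40.4 and 42.9%, which is within 1.1 percentage points of their rests (39.3 and 41.9%). The order was the opposite on chromosome 10, with 39.5% in the window and 44.9% in the rest, and on chromosome 8, with 42.3 and 42.7%.

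The share was also above that of the distal regions outside the windows. It was 55.4% (49.6 to 61.0%) in the 0.5 Mb on each side of the centromere, where 159 of 287 peaks were differential, and 43.3% (37.6 to 49.1%) in the next 0.5 Mb, so that it was 49.4% (45.3 to 53.5%) within 1 Mb and 47.4% (43.9 to 50.9%) from 1 to 2 Mb. From 2 to 6 Mb it was still 46.7% (44.9 to 48.6%), and beyond 6 Mb it was 40.4% (39.3 to 41.5%). These intervals cover counting error over peaks only, and these bands of distance were not tested against each other. Against only the 2 Mb next to the windows, the difference was 0.255 percentage points and was not past the threshold (exact permutation p = 0.886, adjusted p = 0.886). The members at the border of the windows, Chr11:10002755-10002979 and Chr5:14399366-14399586, lay at -1997 and 1999 kb from the centromere, and the next peaks outside, Chr3:17398005-17398226 and Chr9:796122-796654, lay at -2002 and -2004 kb. All of these were differential, but they are too few to set against the 48.3% of members and 42.1% of other peaks that were.

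When peaks were divided by their status, the lower pooled density of the windows was seen in the peaks that were not differential. The density of the differential peaks, 1.04 times that of the rest when pooled, was higher in the window on 6 of 12 chromosomes. Other peaks numbered 14.5 per Mb in the windows and 17.8 per Mb in the rest, a ratio of 0.812, and their density was lower in the window on 10 of 12 chromosomes, the exceptions being chromosomes 3 and 10. Averaged over the 1 Mb on each side of the centromere, however, both kinds were fewer. Within 1 Mb on each side there were 11.7 differential and 12 other peaks per Mb, against 15.3 and 17.0 from 1 to 2 Mb and 12.6 and 18.7 beyond 6 Mb. Within this 1 Mb, the differential peaks were at 13.3 per Mb in the first 0.5 Mb, above the 12.98 per Mb of the rest. In the next 0.5 Mb they were at 10.2 per Mb, the lowest value of all steps up to 10 Mb. This division was chosen after the shares had been seen and was not tested.

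Within the windows, the median distance from the centromere was 1097 kb for the differential members and 1131 kb for the others. Their median width was 314 bp, against 300 bp for the other members, and was the larger on 9 of 12 chromosomes. In the rest, the medians were 319 and 318 bp. The differential share was 46.3% (329 of 710) in members narrower than the median of the COM1 list and 50.4% (319 of 633) in those at or above it, while the corresponding shares of the other peaks were 42.0 and 42.3%. Of the broad members, 26 of 58 (44.8%, 32.7 to 57.5%) were differential, and of the other broad peaks 256 of 513 (49.9%, 45.6 to 54.2%). These values are descriptions of 1 list. A total of 687 members (51.2%) were neither differential nor at an oschz1-1 peak, compared with 56.9% of the other COM1 peaks.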

How the data were processed

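ChIP-seq libraries of COM1 and oschz1-1 (2 ChIP and 2 input libraries each) were grouped by their labels. As the methods of the study state, the authors trimmed reads, aligned these to MSU7 with Bowtie2, removed reads of low mapping quality and duplicates with Samtools, and called peaks over the input libraries. For this step MACS2 is named by the submitters' processing notes and in the results text, which gives it for a set as large as the table of regions higher in COM1, and SICER by the methods, which name DiffBind for comparing samples. Which of these made which list was not settled here. The 3 deposited lists hold the chromosome, start and end of each region, without height, p-value or read number. The study's reporting summary gives the reads of each library, and both oschz1-1 ChIP libraries had fewer than either COM1 ChIP library. These read numbers were not used here. The table of regions higher in COM1 is the authors' own comparison, and only its positions were used.

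Peaks were assigned to windows by midpoint (Python 3.11.15, numpy 2.4.6, pandas 2.3.3, scipy 1.17.1, matplotlib 3.10.9). The 7 COM1 peaks on the sequence ChrSy were left out. The length of a chromosome was the last listed peak end. Gaps were counted where both neighbors lay in the window, or both outside it on the same arm. The 6 measures were compared by two-sided exact sign-flip permutation tests of the mean difference over 12 chromosomes (4096 sign choices, smallest possible p 0.000488) and adjusted by Benjamini and Hochberg, with a threshold of 0.05. The tests of COM1 peaks were also run on made-up peaks, without and with planted differences in density, width and differential share. The made-up peaks were placed independently of each other. The oschz1-1 list was kept as it was, so the test of its density was not checked in this way. Named regions were the 5 widest members, per chromosome the member nearest to the centromere and the longest stretch without a peak, members with an oschz1-1 peak, the longest run, and the members at the border. Members, windows and tests were chosen with earlier results of these data known. Genes, repeats and sequences were not analysed here, because no genome of MSU7 was used.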

Additional observations from a re-analysis of the deposited data

How the results depend on the processing

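Of 127 alternative values for 8 results, 80 had the same direction and call as reported (for numbers of peaks, a size within 1.5 times). Differences are windows minus rest, with adjusted p under or over 0.05 as stated. With windows of 1 Mb on each side, the differences in density (-7.15 peaks per Mb), median width (-14.0 bp) and oschz1-1 density (-0.263 peaks per Mb) passed the threshold, as did the width with 3 Mb (-16.3 bp), with the centers moved 0.5 Mb towards position 0 (-17.8 bp), with joined peaks (-21.1 bp) and in means (-14.9 bp). With the centers moved towards position 0, density passed it as well (-3.60), and with the centers moved away, oschz1-1 density did (-0.231) and the share of short gaps did not (-2.99). Against only the 2 Mb next to the windows no measure passed it, with -0.548 kb per Mb of covered length, -3.11 percentage points of short gaps and 0.255 of differential peaks, and the median width (3.29 bp) and oschz1-1 density (0.0833) turned their sign. Short gaps also missed it in peaks at or above the median width (-4.30) and with joined peaks (-2.28), as did the differential share with joined peaks (4.87). The number of members was 569 with 1 Mb, 2033 with 3 Mb and 633 in peaks at or above the median width. With 50% of the peak covered, 0.149% of the members had an oschz1-1 peak. Leaving out each chromosome gave differences of -3.78 to -2.19 peaks per Mb, -1.85 to -1.30 kb per Mb, -15.0 to -8.18 bp, -5.48 to -3.89 points of short gaps, 4.93 to 7.19 points of differential share and -0.198 to -0.109 oschz1-1 peaks per Mb. The cause of these changes was not tested. No paired analysis was possible because replicates are not named in any list, and none could be left out. The planned annotation and sequence of members were not run.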
